A study of Homo sapiens with 6 samples.

Results

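The genes described are those that encode the proteins of the cytosolic ribosome. They were taken from the deposited table of 52408 genes by symbol: protein-coding genes named RPL or RPS with a number, RPLP0 to RPLP2 and RPSA, without the RPS6K kinases, RPS4Y genes and hyphenated read-through names. The pattern found 86 genes. Of these, 77 are core genes, 46 for the large subunit (60S) and 31 for the small subunit (40S). Another 8 are paralogs with an L in the name (RPL3L, RPL7L1, RPL10L, RPL22L1, RPL26L1, RPL36AL, RPL39L and RPS27L), which were kept apart, and RPS19BP1 encodes a binding partner of RPS19 rather than a ribosomal protein. FAU and RACK1, ribosomal proteins with other names, lie outside the pattern and are given beside it.

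RNA was sequenced from HepG2, an established human liver cancer cell line, after 24 h in medium with ellagic acid (EA, a polyphenol of plants) at 50 µM, or with an equal volume of DMSO, in which EA had been dissolved. Each group had 3 libraries. The labels name no genotype or other agent beyond the serum and antibiotics that both groups received. Nothing in them tells whether the libraries of a group stem from separate cultures. The p-values therefore cover the spread between these libraries only, which may be technical. Libraries held 22987425 to 25973621 gene reads in DMSO and 15738089 to 19202292 in EA. EA replicate 3 scored 27.03 on the second principal component and the other EA libraries -14.44 and -11.90. That component held 2.38% of the variance, and the first, which parted EA from DMSO, 95.5%. EA replicate 3 thus stood apart from the other EA libraries, and the main results are given without it as well.

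The ribosome is built from ribosomal RNA and about equal amounts of each ribosomal protein, and a dividing cell spends much of its transcription and translation on making it. Nearly all mRNAs of ribosomal proteins begin with a cytosine followed by a run of pyrimidines, the terminal oligopyrimidine (TOP) start. When the kinase mTORC1 is inhibited, LARP1 binds this start and holds the mRNA out of translation while protecting it from decay. Unassembled RPL5 and RPL11, joined with 5S RNA, can bind and inhibit the ubiquitin ligase MDM2. Hepatocytes and liver cancer cells rely on this machinery for their large output of plasma proteins.

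The start of a ribosomal protein gene is shown here for genes at both ends of the range of change, because the TOP start is the sequence feature that most of the core genes share. Each window holds 15 bases before and 15 bases from the transcription start, 5′ to 3′ on the gene's strand, from RefSeq on GRCh38.p14. Each spans the edge between the promoter and the first exon, and capitals mark a cytosine at the start and the pyrimidines that follow it.
RPL3, chr22:39319609-39319638, minus strand: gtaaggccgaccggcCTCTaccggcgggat
RPL12, chr9:127451392-127451421, minus strand: ccgcgcgatttccggCCTCTCggctttcgg
RPL10A, chr6:35468386-35468415, plus strand: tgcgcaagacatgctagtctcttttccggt
RPSA, chr3:39406705-39406734, plus strand: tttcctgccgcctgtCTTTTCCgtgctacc
RPL11, chr1:23691791-23691820, plus strand: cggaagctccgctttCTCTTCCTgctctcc
RPS13, chr11:17077653-17077682, minus strand: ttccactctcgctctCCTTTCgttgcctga
RPL18, chr19:48619164-48619193, minus strand: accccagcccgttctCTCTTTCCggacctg
RPL28, chr19:55385917-55385946, plus strand: tcgcccctcgccttcCTCTTTCCgtctcag

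RPL3, RPL12, RPL10A and RPSA are among the 8 core genes that fell most, and RPL11, RPS13, RPL18 and RPL28 are among the 8 with the smallest change. The listed start of RPL10A holds no such run, though one lies a few bases further on in the window. The run of RPL3 stops after 4 pyrimidines, 1 short of the rule used here (C and 4 more). Of the 77 core genes, 62 matched a row of the table by symbol, and 46 of these (74.2%) met the rule, against 1404 of all 27305 genes in the table (5.14%). The motif CCGGAAG, searched on either strand in 250 bases before and 50 after the start, was found in 22 of the 62 (35.5%) against 12.2% of all genes. CACGTG was found in 4 (6.45% against 8.77%), and TATAAA before the start in 2 (3.23% against 8.38%). A match describes the letters of the window only, and RPL11 has 2 starts in the table.

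With EA the mRNA level of the core genes was lower almost without exception. Of the 77, 76 had enough reads to be tested in the edgeR model of all genes. At a threshold of 0.05 on the adjusted p, 75 of them were lower with EA and 0 higher, while 40.5% of all 15648 tested genes were lower and 40.5% higher, 81.0% in all. The median log2 fold change of the core genes was -0.96, with quartiles of -1.15 and -0.77. Over all tested genes the median was 0.00, with quartiles of -0.86 and 0.92. In 74 of the 76 the 3 EA libraries all lay below the 3 DMSO libraries, which held for 41.5% of all tested genes. A fall of 2-fold or more was called for 33 of the 76, against 21.5% of all tested genes. The changes were close to each other in size, since 69 of the 76 lay within 0.5 of their median on the log2 scale. Their SD was 0.32, against 1.91 over all tested genes and 1.35 over the abundant ones described below.

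**Figure D1:**
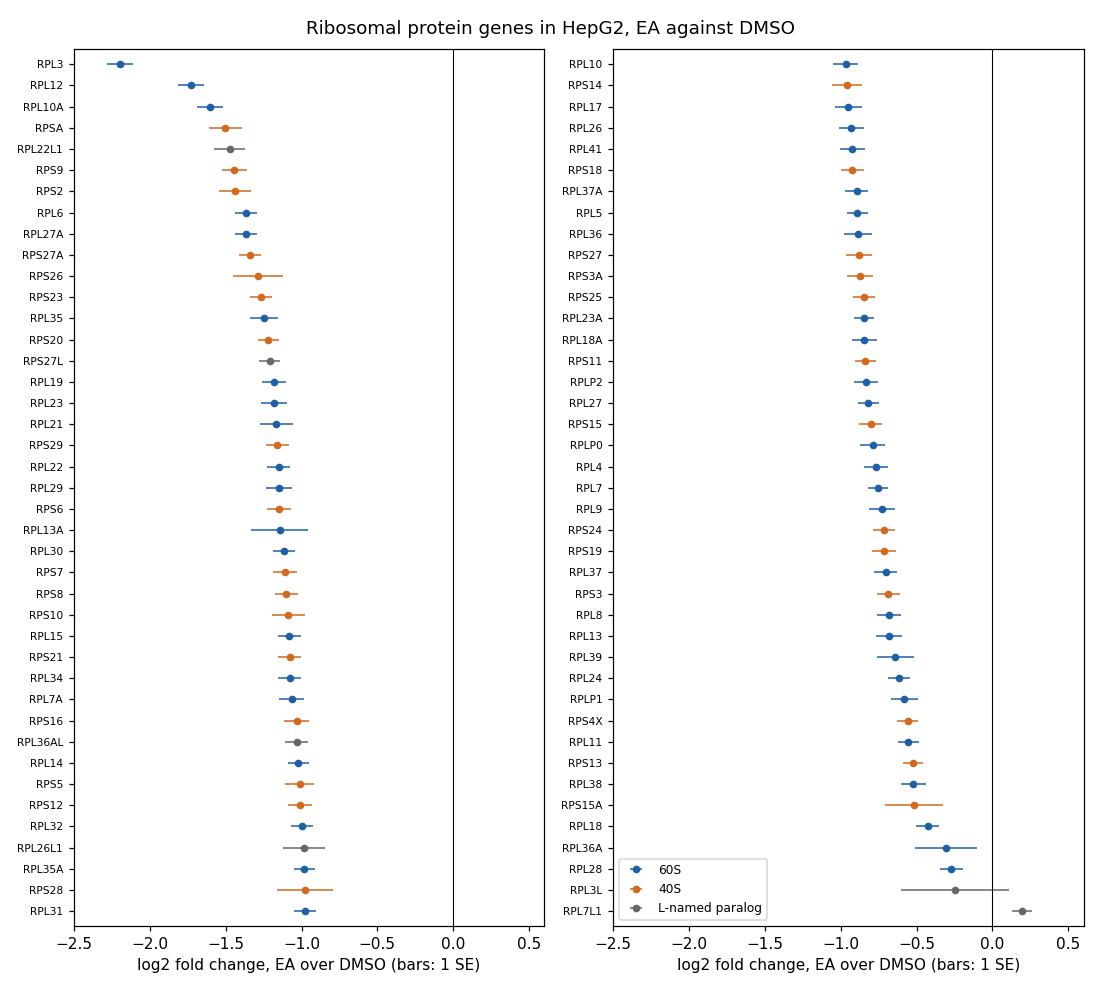
Log2 fold change (EA over DMSO, x axis) of every tested core gene and L-named paralog, ordered from the largest fall, with bars of 1 SE. Large-subunit genes are blue, small-subunit genes orange and paralogs grey. All points but that of RPL7L1 lie below 0, RPL3 stands apart at -2.20, and most points lie near -1.

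Levels are relative to the other genes of each library, and in bulk RNA fewer cells and less RNA per cell cannot be told apart, so the data do not give ribosomal protein mRNA per cell. Core genes took 4.33%, 4.25% and 4.01% of all gene reads with DMSO, against 2.13%, 2.37% and 1.97% with EA. The groups did not overlap. The mean share went from 4.20% ± 0.167 to 2.16% ± 0.205 (SD, n = 3 per group), a ratio of 0.514, and the exact two-sided permutation test gave p = 0.1, the smallest value that 3 against 3 can give. These shares rest on 3125315 core reads in DMSO and 1160870 in EA. No core gene was among the 20 genes with the most reads.

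Abundant genes and genes with short transcripts, as most core genes are, were each not lower as a whole class. These classes were not limited to protein-coding genes, and short protein-coding genes were not counted apart. Of the 2474 tested genes with a mean of 100 CPM or more (CPM is the read count relative to the TMM-scaled library size), 39.6% were lower and the median log2 fold change was 0.15. Of the 2652 with a transcript of 1000 bases or less, 38.0% were lower and the median was 0.01. Both properties held for 162 genes, 52 of them core genes, all of which were lower. Of the other 110, 67 were lower and 41 higher, with a median of -0.49, so short and abundant genes outside the core set were more often lower than higher too.

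Within the EA group, replicate 2 had the highest level of 69 of the 76 core genes and replicate 3 the lowest of 64. Within DMSO, replicate 1 was highest for 46 and replicate 3 lowest for 53. Most core genes thus ordered the libraries of a group alike. Without EA replicate 3, 75 core genes were still called lower, with a median of -0.92, and the share of core reads differed from DMSO by -1.95 percentage points in place of -2.04. Of 10 hepatocyte markers, 9 were lower and APOA1 higher, and their summed level went from 49191 to 52060 CPM in DMSO to 13186 to 13699 in EA. Markers of other cell types stayed low. The summed range was 2.32 to 2.44 and 3.07 to 3.92 CPM for 4 endothelial markers, and 16.4 to 17.6 and 4.61 to 6.45 for 5 stromal markers, in DMSO and EA respectively. For 5 immune markers it was 0.354 to 0.652 and 7.58 to 12.4 CPM, nearly all from CD79A, with PTPRC, CD68 and CD3E at 0 reads, and 5 erythroid markers summed to at most 0.371 CPM. The part of these markers in the ribosomal protein result was not tested.

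RPL3 (ENSG00000100316), which reaches with a long finger to the peptidyl transferase centre, fell most. Its level was 1464, 1483 and 1373 CPM with DMSO and 294, 358 and 291 with EA, so that even the highest EA library lay far below the lowest DMSO library. The log2 fold change was -2.20 ± 0.09 (SE), a fall of 4.58-fold (adjusted p = 3.32e-12). RPL12 (ENSG00000197958), at the base of the acidic stalk, went from 578, 563 and 540 CPM to 168, 192 and 147, a log2 fold change of -1.73 ± 0.09 (adjusted p = 1.44e-10). RPL10A (ENSG00000198755), the protein of the L1 stalk at the exit site for tRNA, went from 568, 574 and 520 CPM to 188, 202 and 158 (-1.60 ± 0.09, adjusted p = 2.37e-10). In these 3 genes of the large subunit the EA libraries lay close to each other and well apart from the DMSO libraries.

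In the small subunit the largest fall was that of RPSA (ENSG00000168028), which sits on the solvent side and is also known as a laminin receptor. It had 706, 672 and 631 CPM in DMSO and 231, 278 and 200 in EA (-1.50 ± 0.11, adjusted p = 7.77e-08). RPS2 (ENSG00000140988), which lines the mRNA entry, had 1299, 1290 and 1156 CPM in DMSO and 447, 542 and 391 in EA (-1.44 ± 0.11, adjusted p = 1.01e-07). RPS9, a neighbour of RPS2 at the mRNA entry, changed by -1.44 as well, and the large-subunit genes RPL6 and RPL27A by -1.36 each. Replicate 3 was the lowest EA library for RPL3, RPL12, RPL10A, RPSA and RPS2, and no EA library of any of the 8 reached a DMSO library.

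**Figure D2:**
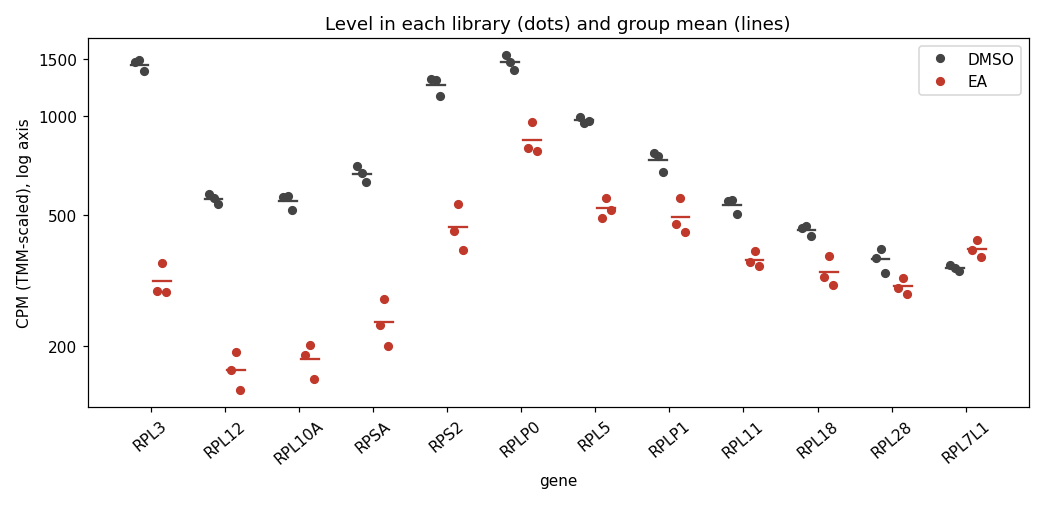
Level of 12 genes in each of the 3 DMSO (grey) and 3 EA (red) libraries, in CPM scaled by TMM on a log axis, with a line at each group mean. RPL3 went from a mean of 1440 to 314 CPM, RPL28 only from 367 to 304, and the paralog RPL7L1 lay higher in all 3 EA libraries.

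At the other end, RPL28 (ENSG00000108107), a large-subunit protein of eukaryotic ribosomes only, changed least among the called core genes. It had 371, 394 and 334 CPM in DMSO and 301, 322 and 289 in EA, groups parted by a narrow gap (-0.27 ± 0.07, adjusted p = 0.00334). It was not called when a fold of at least 1.2 was required (adjusted p = 0.274). RPL18 (ENSG00000063177) had 456, 463 and 433 CPM in DMSO and 325, 375 and 306 in EA (-0.43 ± 0.08, adjusted p = 0.000105). RPL38, known from mice for its part in the translation of Hox mRNAs, changed by -0.52, RPS13 by -0.53 and RPS4X, the X-linked copy of RPS4, by -0.56.

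RPS15A and RPL36A, also of this end, had few reads, and RPL11 is described below with RPL5. RPS15A had 9.11, 7.61 and 10.0 CPM in DMSO and 8.09, 6.36 and 4.39 in EA, and its groups overlapped although it was called (-0.52 ± 0.19, adjusted p = 0.0232). That call held in 14 of 19 alternatives. It was lost without DMSO replicate 3 (adjusted p = 0.0837), with pseudogene reads added (0.342), with GC and length correction (0.0734), with a minimum fold of 1.2 (0.0605) and at a threshold of 0.01. RPL36A was the single tested core gene that was not called, with 7.55, 7.83 and 7.86 CPM in DMSO and 8.21, 6.73 and 3.96 in EA (-0.31 ± 0.20, adjusted p = 0.179). Its EA libraries spread more widely than its DMSO libraries, and it was called lower without EA replicate 1 (-0.55, adjusted p = 0.019) and without the low-count filter (-0.44, adjusted p = 0.0083).

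Set per kilobase of coding sequence, the highest mean levels in DMSO were those of RPL41, which has only 75 coding bases, RPL37A, RPS18 and RPS12. In EA, RPL41 and RPL37A were again the highest, and RPLP1 (1443 CPM per coding kilobase) came before RPS18. Mean level per coding kilobase went from 4814 to 2536 CPM for RPL41, from 3193 to 1717 for RPL37A, from 2511 to 1323 for RPS18 and from 2160 to 1071 for RPS12. The log2 fold changes of these 4 genes were -0.92, -0.90, -0.92 and -1.01, near the median of all core genes. Counts were given for whole genes and not for their coding part, so this scale favours genes with few coding bases. Over its transcript of 584 bases RPL41 had 361 CPM in DMSO, less than the 1145 CPM of RPS18 over 601 bases. The order therefore depends on the length used.

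Split by subunit, 45 of 46 large-subunit genes were lower with a median log2 fold change of -0.93, and all 30 tested small-subunit genes were lower with a median of -1.01. The ratio of summed 40S to summed 60S reads was 0.679, 0.681 and 0.684 in DMSO and 0.667, 0.661 and 0.646 in EA. The EA values all lay below the DMSO values, with means of 0.681 ± 0.00253 in DMSO and 0.658 ± 0.0109 in EA (SD, n = 3 per group), and EA replicate 3 gave the lowest. The ratio was not tested.

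By role, the acidic stalk recruits the translation factors that hydrolyse GTP. Its anchor RPLP0 had 1544, 1468 and 1383 CPM in DMSO and 799, 961 and 784 in EA (-0.79 ± 0.08, adjusted p = 3.6e-07). RPLP1, carried as a pair with RPLP2, had 777, 757 and 679 CPM in DMSO and 469, 566 and 445 in EA (-0.58 ± 0.09, adjusted p = 3.23e-05). RPLP2 changed by -0.83. All 3 lay nearer to 0 than the median core gene, whereas RPL12, at the base of the same stalk, lay farther from it.

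RPL5 (ENSG00000122406) and RPL11 (ENSG00000142676) form the 5S particle. RPL5 had 997, 957 and 969 CPM in DMSO and 491, 566 and 520 in EA (-0.89 ± 0.07, adjusted p = 9.81e-09). RPL11 had 552, 557 and 505 CPM in DMSO and 360, 388 and 351 in EA (-0.55 ± 0.07, adjusted p = 2.04e-06). Both groups of libraries were apart for both genes. Of 8 genes listed for MDM2 and its pathway, 4 were higher, namely the p21 gene CDKN1A (2.30), MDM2 itself (1.58), the phosphatase gene PPM1D (1.38) and MDM4 (1.03, all log2 fold changes). The other 4 were lower, among them CDKN2A (-0.98), HEXIM1 (-0.18) and NOP53 (-0.19). Over all tested genes 40.5% were lower and 40.5% higher.

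Genes mutated in Diamond-Blackfan anaemia, an inherited failure of red cell production, numbered 20 in the list used. Of these 19 were tested and all 19 were lower, with a median of -0.98 and a range from -1.28 for RPS26 to -0.43 for RPL18. All 10 genes whose proteins line or rim the peptide exit tunnel were lower (median -0.96), among them RPL4 (-0.77), which had the highest CPM of all core genes, RPL22 (-1.15) and RPL39 (-0.64). Of 10 genes of the mRNA channel and decoding site, 9 were lower (median -0.996) and FAU, with few reads, was not called. The lists share genes with each other and with the core set, so they describe it and are no further evidence.

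The make-up of the ribosomal protein reads differed between the groups for part of the genes. When each library was scaled to its summed core reads, 30 of the 76 genes differed between EA and DMSO, 12 lower and 18 higher relative to that sum. Against the same sum 14.1% of all tested genes were lower and 68.1% higher, since the sum itself was lower with EA. The part of core genes that was lower was thus near that of all tested genes. As the core genes make up the sum, a loss of share in some comes with a gain in others. The order of the genes closely follows that of the fit over all genes, so these calls are no separate evidence. RPL3 went from 3.42% to 1.46% of core reads (-1.23 ± 0.10 relative to the sum, adjusted p = 1.62e-09), RPL12 from 1.33% to 0.784% and RPL10A from 1.31% to 0.847%. RPSA, RPS9, RPS2, RPL6, RPL27A, RPS27A, RPS23, RPL35 and RPS20 were also lower relative to the sum.

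In the other direction, RPL28 went from 0.869% to 1.42% of core reads (0.70 relative to the sum, adjusted p = 4.32e-06) and RPL18 from 1.07% to 1.56% (0.54, adjusted p = 5.43e-05). The other 16 included RPL11, RPS13, RPL38, RPS4X, RPLP1 and RPL24, which were lower in the fit over all genes and higher relative to the core sum. RPL4, at 4.59% in DMSO and 5.28% in EA, was the largest single part of the core reads in both groups and was not called relative to the sum (0.20, adjusted p = 0.0611). How many genes were called in this comparison changed with the libraries, from 21 without DMSO replicate 1 or without DMSO replicate 2 to 34 without EA replicate 3.

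**Figure D3:**
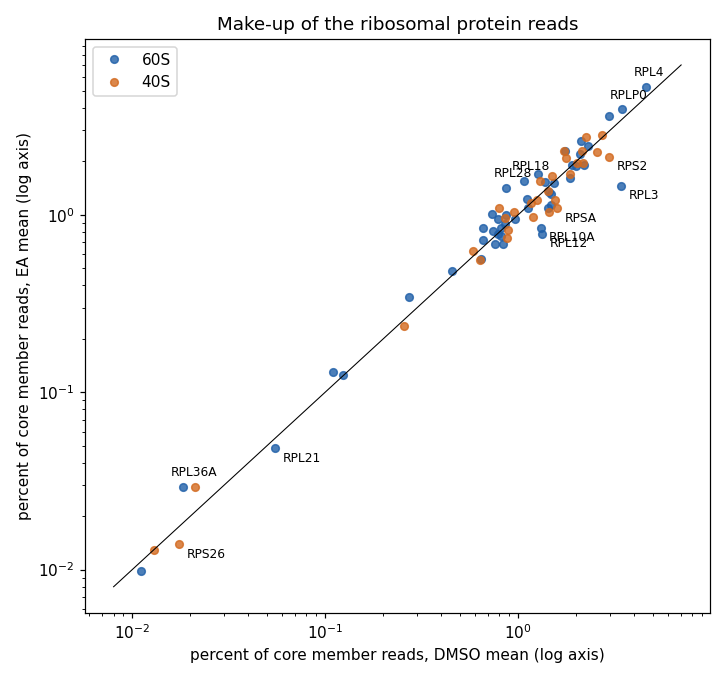
Percent of all core reads taken by each tested core gene, mean of the DMSO libraries (x) against mean of the EA libraries (y), both on log axes, with the line of equal shares. Most genes lie close to the line. RPL3, RPL12 and RPL10A lie below it and RPL28 and RPL18 above it.

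Of the 8 L-named paralogs, 6 were tested. RPL22L1, the paralog of RPL22, had 22.8, 21.0 and 21.3 CPM in DMSO and 7.53, 8.11 and 7.77 in EA (-1.47 ± 0.10, adjusted p = 2.55e-09). RPS27L, a paralog of RPS27, had 125, 123 and 126 CPM in DMSO and 53.4, 56.5 and 51.6 in EA (-1.21 ± 0.07, adjusted p = 1.69e-10). RPL36AL (-1.03) and RPL26L1 (-0.98), which encode near-identical copies of RPL36A and RPL26, were lower too, and in each of these 4 genes the groups did not overlap.

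RPL7L1 went the other way, with 353, 345 and 337 CPM in DMSO and 391, 419 and 372 in EA. All EA libraries lay above all DMSO libraries, and the change was small (0.19 ± 0.07, adjusted p = 0.0141). The call held in 11 of 19 alternatives. It was lost without any 1 of the 3 DMSO libraries (adjusted p = 0.0635, 0.0635 and 0.122), without EA replicate 2 (0.0878), without the low-count filter (0.498), with a minimum fold of 1.2 (0.685) and at a threshold of 0.01. After correction for GC content and length its log2 fold change was -0.02 (adjusted p = 0.8). RPL3L, the muscle form of RPL3, was at about 1 CPM and not called (-0.25, adjusted p = 0.525). The testis forms RPL10L and RPL39L were not tested, with 0 and 2 reads over all 6 libraries. RPS19BP1, no ribosomal protein, was lower (-0.47, adjusted p = 6.61e-05).

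Outside the symbol pattern, RACK1, the scaffold for kinases on the head of the small subunit, had 952, 958 and 857 CPM in DMSO and 610, 690 and 607 in EA (-0.54 ± 0.07, adjusted p = 6.77e-06). FAU, which encodes a ribosomal protein fused to a ubiquitin-like protein, was not called (-0.48, adjusted p = 0.118). It held 131 reads over the DMSO and 68 over the EA libraries, few for a gene that every cell uses.

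Some core genes also had far fewer reads than the rest. RPS26, RPL21, RPL13A, RPL17, RPS28, RPL9, RPS15A and RPL36A had means below 100 CPM in DMSO, a bound set after the values were seen, while the other tested core genes had more. The median log2 fold change of these 8 was -0.96, the same as that of the other 68. The sources used here do not give how the counting treated reads that match several places. In the GENCODE 29 annotation, which need not be the one used for counting, 98.2% of the coding bases of RPL17, 67.3% of those of RPL36A and 36.9% of those of RPS15A lie under exons of other genes. For RPS26, RPS28, RPL21 and RPL9 the figure was 0. Core genes with many more reads also had large overlaps, such as RPL26 (60.7%, at 346 CPM in DMSO), RPL22 (59.4%, 269 CPM), RPS23 (57.1%, 506 CPM) and RPL30 (51.5%, 318 CPM).

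Ribosomal protein mRNAs have left many processed copies in the genome, and reads from a gene and its near-identical copies can be split or misplaced. The table held 1139 pseudogenes named after a core gene or paralog. The gene RPS28 had 403 reads in DMSO and 148 in EA, while its copy RPS28P7 had 11215 and 4929. RPL13A had 347 and 114 reads and RPL13AP5 4883 and 1572. For both, most reads that carry the name thus lay in the copy, and the copy fell as well (-0.73 for RPS28P7 and -1.18 for RPL13AP5).

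Of the 1139 pseudogenes 80 were tested, and 42 were lower, 24 higher and 14 not called, with a median of -0.62. Over all tested genes 40.5% were lower and 40.5% higher. RPL3P4, the copy of RPL3 with the most reads, had a log2 fold change of -2.21, next to -2.20 for RPL3 itself. RPS2P5 (-1.25), RPS27AP16 (-1.29) and RPL6P27 (-1.29) also fell nearly as far as their genes. Some copies rose while the gene fell, among them RPL23AP7 (2.63), RPL17P22 (1.80), RPL23AP53 (1.28), and RPL35P2, with 25 reads over DMSO and 300 over EA. Summed over copies, 33 core genes had at least 300 pseudogene reads, and 26 of these sums were lower with EA and 7 higher. The share of all reads in the copies was 0.115% ± 0.00326 with DMSO and 0.0833% ± 0.00715 with EA (SD, n = 3 per group). When their reads were added to the genes, 73 of 76 core genes were called lower.

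**Figure D4:**
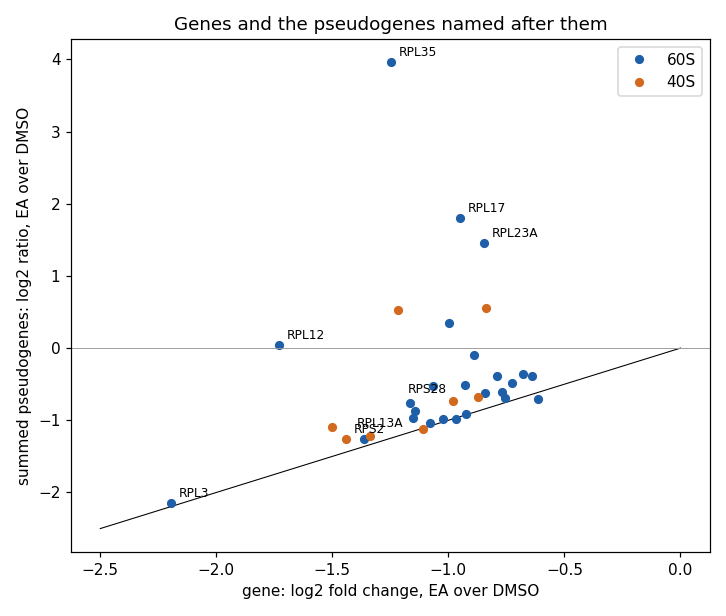
Log2 fold change of a core gene (x) against the log2 ratio of the summed reads of the pseudogenes named after it (y), EA over DMSO, for the 33 genes with at least 300 pseudogene reads. Most points lie near the line of equal change or between it and 0. Those of RPL35, RPL17 and RPL23A lie well above 0.

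How far a core gene fell went only weakly with what else is known of it. Across the 76 genes, which share libraries and are no independent replicates, Spearman's rho with the log2 fold change was -0.13 for the DMSO level, -0.127 for transcript length, -0.152 for coding length, -0.023 for GC content, -0.133 for the number of snoRNA genes inside the gene and -0.277 for the number of pseudogenes (Pearson's r from -0.262 to -0.0356). The median was -0.94 in 46 genes with a TOP start in the table and -1.04 in 16 whose listed start did not meet the rule. Since nearly all ribosomal protein mRNAs begin with a TOP start, these 16 cannot be taken to lack one. RPL3, with the largest fall, did not meet the rule, and RPL28, with the smallest, did. Genes that host a snoRNA in an intron had a median of -0.98 (28 genes) and the others -0.94 (48). The 4 genes on the X chromosome, RPL10, RPL39, RPS4X and RPL36A, had a median of -0.60, against -0.98 for 72 on autosomes. Of these 4, RPL10 (-0.97) lay near the autosomal median, and RPL36A had few reads and was not called. The difference was not tested.

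Lists of genes that work with the ribosomal proteins held changes in both directions, as all tested genes did (40.5% lower and 40.5% higher). The counts below are to be read beside these shares. Of 17 other TOP mRNAs tested, 9 were lower, 3 higher and 5 not called, with a median of -0.22. The elongation factor genes EEF1B2 (-1.33) and EEF1A1 (-0.76), the initiation factor gene EIF3K (-1.19) and NPM1 (-0.92), for a nucleolar chaperone, were lower. EEF1A1 went from 8849 ± 277 to 5222 ± 368 CPM (SD, n = 3 per group). NACA (1.22, at under 5 CPM), NAP1L1 (0.19) and TPT1 (0.17) were higher. The elongation factor gene EEF2 (-0.10) and the poly(A)-binding protein gene PABPC1 (0.13) were not called, and EEF1G was listed at 0. Of 10 non-coding snoRNA hosts with TOP-like starts, 4 were lower (SNHG12 at -0.77, SNHG8 at -0.62, SNHG1 at -0.58 and SNHG6 at -0.54), 3 were higher (SNHG7 at 0.84, EPB41L4A-AS1 at 0.58 and ZFAS1 at 0.20) and 3, GAS5 among them (0.12), were not called.

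Of 17 genes of mTORC1 and of TOP mRNA control, 5 were lower and 10 higher (median 0.21). The inhibitors DDIT4 (1.82), SESN2 (1.80) and TSC1 (1.37) and the cap-binding protein gene EIF4E (1.16) were higher. The S6 kinase gene RPS6KB2 (-1.46), the mTOR partner MLST8 (-1.45), TSC2 (-0.75) and EIF4EBP1 (-0.53), for an inhibitor of EIF4E, were lower. MTOR (0.15) and LARP1 (0.01) were not called. These are mRNA levels and give no measure of kinase activity or of TOP mRNA translation.

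Among 15 tested chaperones and importers of new ribosomal proteins, 8 were lower and 3 higher (median -0.28). HEATR3 (-0.81), which brings RPL5 into the nucleus, PDCD2 (-0.77), the chaperone of RPS2, BTF3 (-0.46) and the importin gene IPO5 (-0.44) were lower. ZNF277 (0.51), NACA and TNPO1 (0.28) were higher. Of 18 genes of late assembly and export, 7 were lower, among them MRTO4 (-1.59), EIF6 (-0.83), NXT1 (-0.53) and XPO1 (-0.51). Another 5 were higher, among them EFL1 (1.52) and SBDS (0.88), which together release EIF6 from the large subunit, and RIOK1 (0.72) and LSG1 (0.52). Of 14 genes of ribosome rescue and stress sensing, 10 were higher, including ANKZF1 (0.63), MAP3K20 (0.63), RNF10 (0.61) and LTN1 (0.54). EDF1 (-1.59), which binds collided ribosomes, and NEMF (-0.18) were lower.

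The mitochondrial ribosome, a separate particle that translates mitochondrial mRNAs, is encoded by nuclear genes named MRPL or MRPS. Of 74 tested, 64 were lower, 2 higher and 8 not called, with a median of -1.07 and an SD of 0.81, against 0.32 for the cytosolic core genes. Their quartiles were -1.36 and -0.65, against -1.15 and -0.77 for the core genes. MRPL23 (-2.63), MRPL11 (-2.21), MRPL57 (-2.07) and MRPS26 (-1.65) were lower, and MRPS6 (3.87) and MRPS31 (0.37) higher. MRPS6, at only 0.96 CPM in DMSO, widens the SD.

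**Figure D5:**
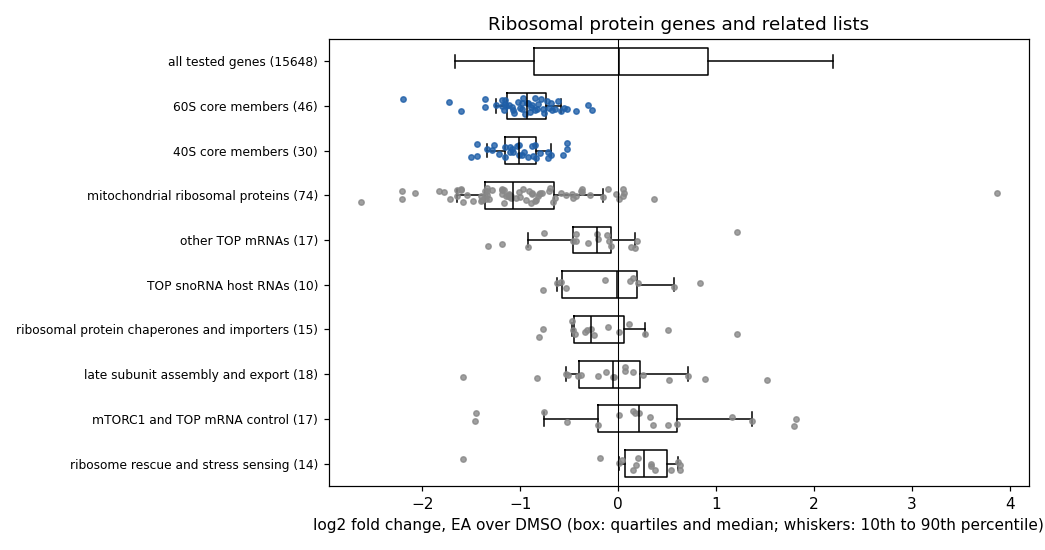
Log2 fold change (EA over DMSO, x axis) of the genes in each list, with the number tested in brackets; boxes give the quartiles and median, whiskers the 10th and 90th percentiles and dots single genes (none drawn for all tested genes). The cytosolic core genes lie in a narrow band around -0.96, the mitochondrial ones in a wider band around -1.07, and the other lists on both sides of 0.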

How the data were processed

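The authors deposited a table of counts, unscaled whole numbers of reads for 52408 genes in 6 libraries. Per the labels' protocols, TRIzol total RNA went into NEBNext Ultra libraries read as pairs of 150 bases on a HiSeq. The submitters' processing notes name HISAT, HTSeq 0.6.1, cutadapt 1.9.1, bcl2fastq 2.17.1.14 and the build hg19. The sources used here do not give the annotation, the strand setting or the HISAT version, so overlapping and antisense genes cannot be told apart. All 37 genes named MT- were listed at 0.

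Counts were filtered with filterByExpr, scaled by TMM and tested with edgeR 4.0.16 (R 4.3.3; quasi-likelihood F test, robust, Benjamini-Hochberg over all 15648 tested genes, threshold 0.05). The SE is the size of the log2 fold change over the root of F, and the common biological coefficient of variation was 7.96%. The make-up of the core reads was tested in the same way with library sizes set to the summed core reads. Coding length, transcript length, GC content (99.9% of tested genes had one) and overlaps came from GENCODE 29.

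The symbol rule, the gene lists and the tests were chosen with earlier results of these data known. Named genes are the 8 largest and 8 smallest core changes, the 4 highest levels per coding kilobase, uncalled or untested genes, stalk and 5S genes, paralogs, FAU and RACK1, and up to 4 called genes per direction in each list. Others (single genes of the role lists, the pseudogenes, genes beside a count, and RPS6K and read-through genes) were named after their values were seen. A few genes covered by the rule are left out of the text. On simulated counts for EA against DMSO with 15269 genes the test recovered 45, 50, 50 and 50 of 50 genes changed 1.5, 2, 4 and 8-fold, with 17 false calls. The changed genes were few, went in both directions and left out the genes with the lowest levels. These figures therefore do not carry over to genes with few reads, or to data where 81.0% of genes were called. Alternatives were DESeq2 1.42.0, limma-voom (limma 3.58.1), RLE, upper-quartile and library-size scaling, TMM without the ribosomal protein genes, no filter, 1 CPM in 3 libraries, an adjusted p of 0.01, a minimum fold of 1.2, GC and length correction, a replicate block, added pseudogene reads and each library left out.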

Additional observations from a re-analysis of the deposited data

How the results depend on the processing

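Across 19 alternatives the number of core genes called lower stayed between 73 and 76 of 76, and 0 were called higher in any; 4 paralogs were called lower in each. Over all genes 11130 (minimum fold of 1.2) to 14923 (no filter) were called. The median core change was -1.09 without the low-count filter, where the median of the usually tested genes moved to -0.13. The log2 difference of the 40S to 60S ratio was -0.05, and became -0.0688 with pseudogene reads added and -0.18 by medians of log2 values. Leaving out 1 library gave 12302 to 13613 called genes, 74 to 76 core genes lower, a core median of -1.03 to -0.92, 21 to 34 core genes called relative to their sum, a share difference of -2.15 to -1.95 points and a ratio difference of -0.06 to -0.04. Direction turned for RPL7L1 with GC and length correction (-0.0179, adjusted p = 0.8), for RPL36A with pseudogene reads added (0.0635, adjusted p = 0.797) and for RPL3L without EA replicate 1 (0.0525, adjusted p = 0.89; -0.673 to 0.0525 over the libraries left out); the cause was not tested. For single named genes, 571 of the alternative values kept direction and call, 13 lost the call, 2 gained it and 3 turned. With a replicate block, 12537 genes, 75 core genes lower and 34 relative to the sum were called, so the block changed no core count by over 1.5 times. Deviations of same-numbered libraries from their group means correlated at -0.123, 0.0373 and -0.00752 over 15648 genes. Those of differently numbered libraries correlated at -0.0708 to 0.0807. Over the core genes the same-numbered values were -0.189, 0.193 and -0.167. With 3 libraries per group these values cannot tell whether the libraries were paired. Of the genes with few reads, RPL36A, RPL3L and FAU were not called, while RPL13A, RPS28 and RPS26 were. RPL10L and RPL39L, with 0 and 2 reads, were not tested.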

Other observations

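Besides the RPS4Y genes, which are not analysed here, the symbol pattern leaves out 13 genes that share its letters. Among the RPS6K kinases, RPS6KA3, a kinase downstream of ERK, went from 893 ± 38.0 to 197 ± 25.4 CPM (SD, n = 3 per group), a log2 fold change of -2.18 (adjusted p = 7.6e-12) about as large as that of RPL3. RPS6KB2, which phosphorylates RPS6, went from 49.5 ± 1.88 to 17.99 ± 1.03 CPM (-1.46). RPS6KA5 rose from 1.46 ± 0.421 to 11.6 ± 2.42 CPM (2.98, adjusted p = 5.45e-09) and RPS6KC1 by 0.30, while RPS6KB1 (-0.20) and RPS6KA1 (-0.24) fell slightly. RPS6KA4 (-0.02) and RPS6KL1 (0.14) were not called, RPS6KA2 had too few reads for a test and RPS6KA6 had none.

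Of the 3 read-through genes, RPS10-NUDT3 had 8, 4 and 5 reads with DMSO and 66, 63 and 65 with EA, a log2 fold change of 3.95 (adjusted p = 5.58e-09), while that of RPS10 itself was -1.09. RPL17-C18orf32 (-0.84) and RPL36A-HNRNPH2 (-0.04) were not called. Their exons overlap those of the genes they join, and the sources used here do not give how the counting assigned reads there.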
